A study of Mus musculus with 2 samples.

Results

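The genes described here are 6 signal transducers and activators of transcription (Stat2, Stat3, Stat4, Stat5a, Stat5b and Stat6) and the 2 chains of the interleukin-6 (IL-6) receptor, Il6ra and Il6st. They were taken by gene symbol from the platform annotation, which assigned 19 probe sets of the 45101 on the array to them, 8 genes of the 18193 named there. The RNA came from splenic regulatory T (Treg) cells, which hold other immune cells in check, of mice 6 to 8 weeks old. One pool was from mice deficient in miR-125a, called miR-125a KO here, and the other from their wild-type (WT) littermates. Each pool combined equal amounts of RNA from different mice of a genotype, bead-enriched for CD4 and then sorted for CD4 and high CD25, and was read on 1 Affymetrix Mouse Genome 430 2.0 array. How the deletion was made and how many mice were pooled are not given in the sources used here. Without replicates no difference below has a test or a p-value, and each one compares 2 pooled RNA samples.

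IL-6 binds the chain encoded by Il6ra, which then recruits gp130, the signalling chain encoded by Il6st and shared with the receptors of related cytokines. Janus kinases on the receptor tails phosphorylate STAT proteins, which pair, enter the nucleus and switch on target genes. In CD4 T cells STAT3 relays IL-6 and promotes the Th17 programme, STAT5A and STAT5B relay IL-2 and maintain Foxp3 expression, STAT6 relays IL-4, STAT4 relays IL-12 and STAT2 relays type I interferon. Stat3 and Il6ra have been proposed as targets of miR-125a. A microRNA pairs with target transcripts mainly through its seed, bases 2 to 8, and lowers their stability or translation.

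The mature forms of the missing microRNA are shown with miR-125b-5p and miR-351-5p, which share the seed of miR-125a-5p. They are shown because other microRNAs of this seed are encoded elsewhere in the genome. The sequences are mature forms from RefSeq (GRCm38.p6), 5′ to 3′, with the seed in capitals.
miR-125a-5p (chr17:17830817-17830840, + strand): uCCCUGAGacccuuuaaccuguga
miR-125a-3p (chr17:17830855-17830876, + strand): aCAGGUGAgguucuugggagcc
miR-125b-5p (chr9:41581940-41581961 and chr16:77646279-77646300, both + strand): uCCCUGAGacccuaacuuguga
miR-351-5p (chrX:53053315-53053338, - strand): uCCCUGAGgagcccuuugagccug
The seed of miR-125a-5p was held by at least 5 of 1679 mature names in the table. They were miR-125a-5p, miR-125b-5p, miR-351-5p, miR-6367 and miR-6394, and the sequences of miR-6367 and miR-6394 are not printed. Loci on 1 chromosome were left out of this search but not of the 1679 names, so the count may be too low. The seed of miR-125a-3p was held by 1 name, its own. The levels of these microRNAs were not measured here.

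Every value below is a MAS5 signal, the deposited log2 value turned back to a linear scale on which the 2% trimmed mean of each array was 500.0. Signals of different probe sets depend on their probes, so each is compared between the pools. Sums over a marker list are also compared only between the pools, and they are weighted to the brightest probe sets. The log2 ratio is log2 of the miR-125a KO signal plus 16.3 over the WT signal plus 16.3, which understates the change of dim probe sets. The SD after a ratio is the probe-set SD, which is the spread of ratios between probe sets of 1 gene at that signal, taken over 5037 genes and not from replicate arrays.

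None of the STAT and IL-6 receptor transcripts was far apart between the pools. Of the 19 probe sets, 18 passed the minimum mean signal of 62.3, and the remaining 1, of Il6st, did not. Of the 18, 0 were at least 2-fold higher or lower, against 2.58% of the 22519 probe sets past the minimum. At 1.5-fold the count was again 0 of 18, against 12.4% of all, and at 3-fold 0.48% of all and 0 of the 18 were apart. The ratios ran from -0.56 for a probe set of Il6st to 0.47 for a probe set of Stat5a. The median of the 18 was -0.04, beside -0.03 for all probe sets past the minimum, and the median of the 18 changed sign under quantile and loess scaling, at 0.0032 and 0.0018. In size, 6 of the 18 ratios exceeded their probe-set SD and 1 exceeded 2 such SDs. The share of all probe sets beyond these SDs was not computed, so the counts describe the 18 alone and do not set them apart.

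**Figure D1:**
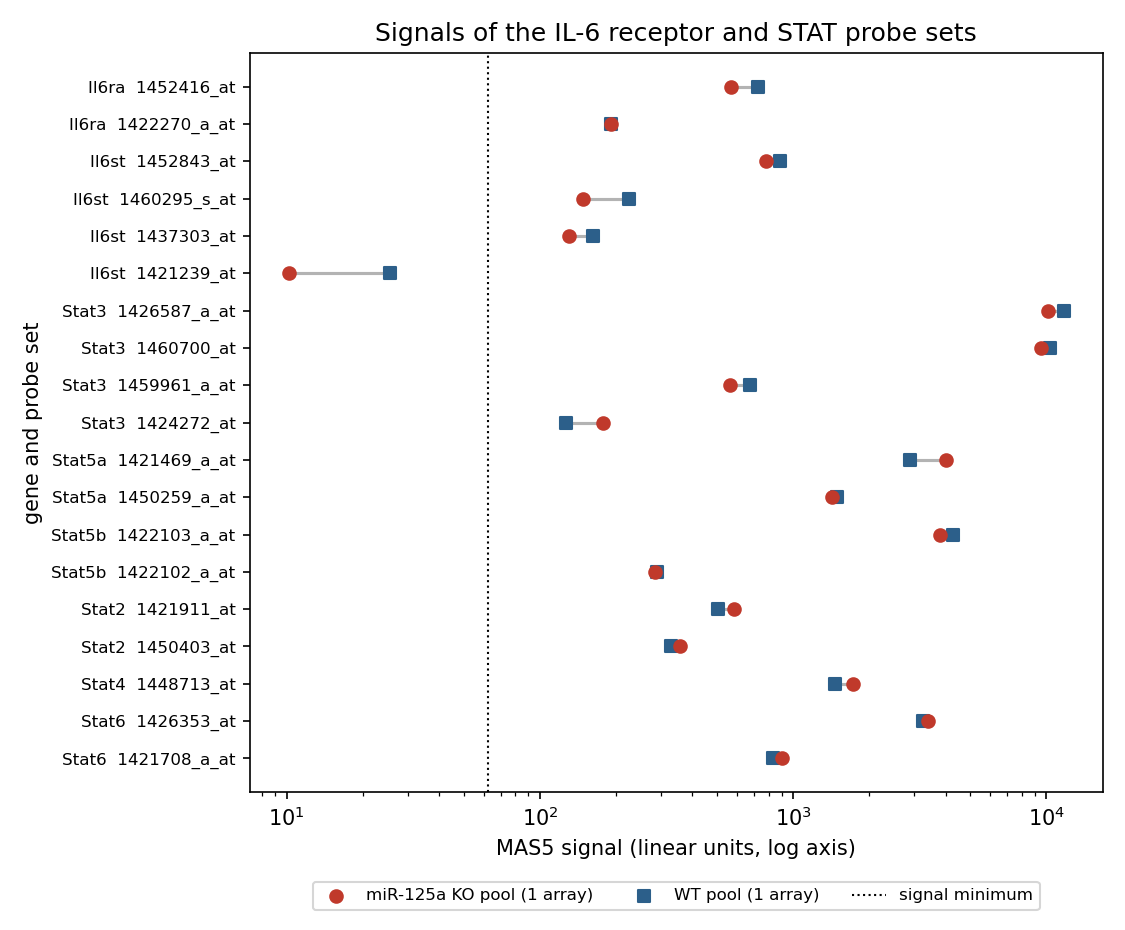
MAS5 signals of the 19 probe sets (horizontal log axis, linear units) in the miR-125a KO pool (red circles) and the WT pool (blue squares), 1 array each, with the signal minimum dotted. The paired points lie close together for every probe set past the minimum, and the widest gap is that of the Il6st probe set at 10.2 in the miR-125a KO and 25.5 in the WT pool, below the minimum.

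The 2 receptor chains were lower in the miR-125a KO pool on each of their 5 probe sets past the minimum, by small amounts, and the smallest of the 5 differences changed sign under other array scalings. On the whole array, 53.6% of the probe sets past the minimum were lower. Il6ra, the chain that binds IL-6, had a signal of 568 in the miR-125a KO pool and 729 in the WT pool on probe set 1452416_at. The ratio was -0.35 (SD 0.24), a signal 1.27-fold lower. Its second probe set, 1422270_a_at, gave 191 in both pools and a ratio of -0.01 (SD 0.38), whose sign turned under each of the 3 other array scalings, to at most 0.08. The pools thus differed on 1 of the 2 Il6ra probe sets by more than the probe-set SD and were level on the other. The difference between the 2 ratios, 0.34 in size, was within the 0.45 that is 1 SD of such a difference.

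Il6st, which encodes gp130, was represented by 4 probe sets. Probe set 1452843_at gave 780 in the miR-125a KO pool and 890 in the WT pool, with a ratio of -0.19 (SD 0.24). Probe set 1460295_s_at gave 147 in the miR-125a KO pool and 225 in the WT pool, with a ratio of -0.56 (SD 0.38). Probe set 1437303_at gave 130 in the miR-125a KO pool and 161 in the WT pool, with a ratio of -0.28 (SD 0.38). The ratio of 1 of these 3 was larger than its SD, and that probe set carries the suffix given to probes that can match several transcripts. With a pseudocount of 1 its ratio was -0.61, past 1.5-fold. The last one, 1421239_at, was below the minimum at 10.2 in the miR-125a KO pool and 25.5 in the WT pool and gets no ratio; it was designed from the same sequence record as 1460295_s_at. The median ratio of the 5 receptor probe sets past the minimum was -0.28.

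Markers of other spleen cells were read beside the receptor chains, since in a sorted pool fewer cells of a type and less RNA per cell cannot be told apart. Of the 8 myeloid markers, 3 passed the minimum, all lower in the miR-125a KO pool, with Fcer1g, a chain of Fc receptors, at 103 in the miR-125a KO and 226 in the WT pool. Itgax, at 47.6 in the miR-125a KO and 79.7 in the WT pool, passed the minimum of 62.3 only through its WT signal. Its direction was therefore not free of that filter. The summed signal of the 8 was 418 in the miR-125a KO and 564 in the WT pool. The defining genes Lyz2, Cd14, Itgam, Adgre1 and Tyrobp were below the minimum in mean signal. Among them, Lyz2, Itgam and Tyrobp were higher in the miR-125a KO pool, and Cd14 and Adgre1 lower. Lyz2 was at 61.0 in the miR-125a KO and 30.8 in the WT pool. Of 6 measured markers of CD8 T and NK cells, 5 passed and all 5 were lower, with summed signals of 10180 in the miR-125a KO and 14879 in the WT pool. Klrd1, an NK cell receptor, had a ratio of -0.64 and Cd8a, a chain of CD8, a ratio of -0.54. Each marker was read on its brightest probe set. The other Cd8a probe sets past the minimum ran from -0.56 to 0.15, and the other probe set of the marker Eomes had -0.01. Klrd1 and Nkg7 held most of these sums, at 5065 and 3969 in the miR-125a KO and 7919 and 5438 in the WT pool. Ncr1, below the minimum, went the other way, at 18.0 in the miR-125a KO and 14.0 in the WT pool. Of 6 measured B cell markers 2 passed, with a median ratio of 0.08. The summed signal of the 6, of which 4 were below the minimum, was 396 in the miR-125a KO and 394 in the WT pool. Their part in the receptor values was not tested. All 8 Treg and CD4 T cell markers passed the minimum, 4 above 0 and 4 below, with a median ratio of -0.03. Foxp3, the master regulator of Treg identity, was at 694 in the miR-125a KO and 1631 in the WT pool, whereas Il2ra, which encodes CD25, was at 18551 in the miR-125a KO and 15390 in the WT pool. Cd4 was at 641 in the miR-125a KO and 715 in the WT pool, and Cd3e, a chain of the T cell receptor complex, at 1438 in the miR-125a KO and 1920 in the WT pool. Ctla4, an inhibitory receptor, was at 16803 in the miR-125a KO and 16623 in the WT pool. Ikzf2, a transcription factor of Treg cells, had the highest ratio of the list, 0.45, and Gpr83, a receptor of Treg cells, the next, 0.34. The other Gpr83 probe set gave 1702 in the miR-125a KO and 1793 in the WT pool, a ratio of -0.07. Of 6 measured markers of resting T cells, 2 were above 0 and 4 below, with a median of -0.03. Klf2, a factor of T cell quiescence, was 2-fold or more lower, at 366 in the miR-125a KO and 971 in the WT pool, and Satb1, a chromatin organiser, had the highest ratio, 0.84.

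Stat3, which carries the IL-6 signal, was lower on 3 of its 4 probe sets and higher on the fourth. Probe set 1426587_a_at gave 10115 in the miR-125a KO pool and 11703 in the WT pool, a ratio of -0.21 (SD 0.16). Probe set 1460700_at gave 9558 in the miR-125a KO pool and 10334 in the WT pool, a ratio of -0.11 (SD 0.16). The signals of these 2 were the least exposed to error at low signal, and both lay within 1.16-fold. Probe set 1459961_a_at gave 561 in the miR-125a KO pool and 677 in the WT pool, a ratio of -0.26 (SD 0.27). Probe set 1424272_at went the other way, at 178 in the miR-125a KO pool and 126 in the WT pool, with a ratio of 0.44 (SD 0.38). No probe set of Stat3 was thus 1.5-fold apart in either direction, and the 4 spanned 0.71 on the log2 scale. Stat3 protein was not measured.

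**Figure D2:**
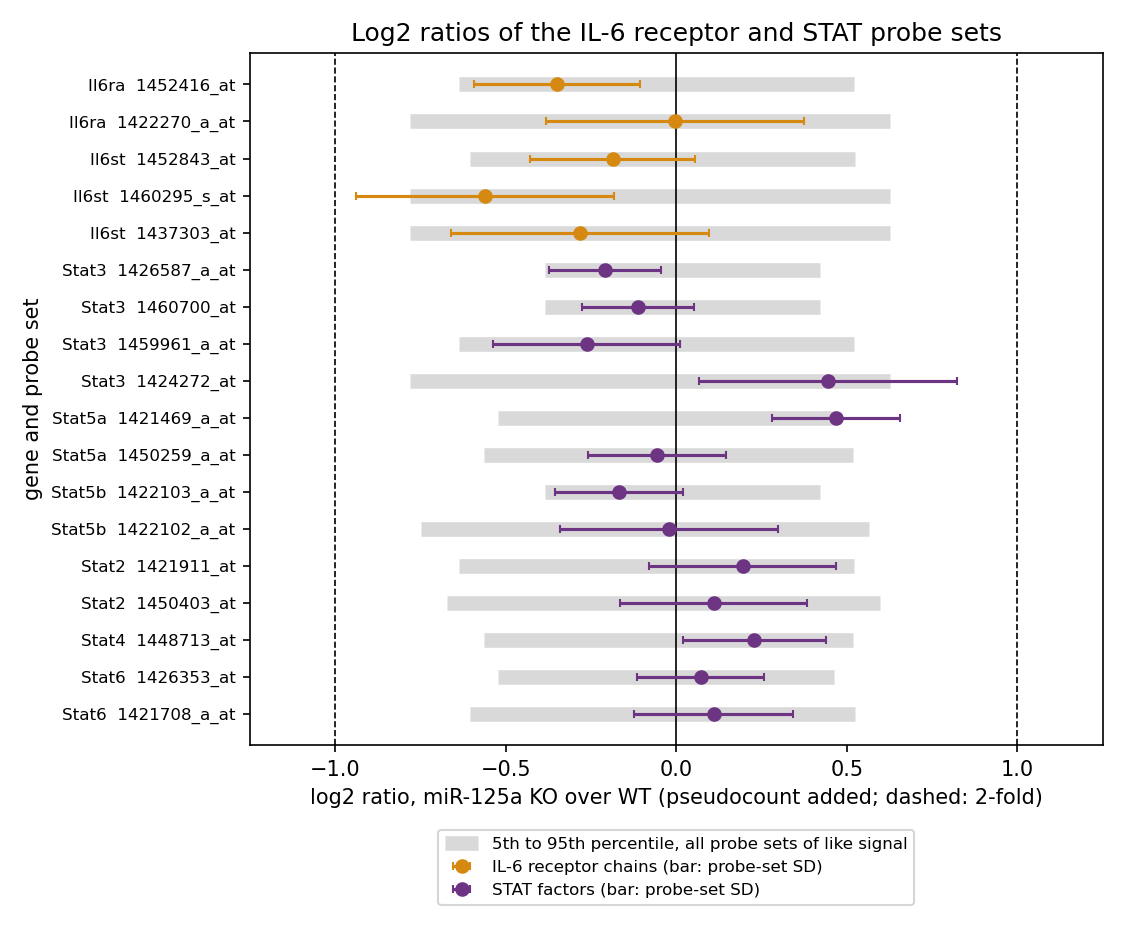
Log2 ratio of the miR-125a KO over the WT signal for the 18 probe sets past the minimum (horizontal axis), with bars of 1 probe-set SD. Grey bands run from the 5th to the 95th percentile of all probe sets in the same of 10 equal groups by mean signal. Each band thus holds the central 90% of its group, and dashed lines mark 2-fold. The points of Il6ra and Il6st lie at or left of 0, those of Stat2, Stat4 and Stat6 lie right of 0, and 1 point, of Stat5a at 0.47, lies just outside its grey band.

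Stat5a and Stat5b encode close relatives that both relay IL-2, and together with Stat3 they are neighbours on chromosome 11, with 0 protein-coding genes between Stat5b and Stat5a and 0 between Stat5a and Stat3 in the RefSeq table. Stat5a held the highest ratio of the 18. Probe set 1421469_a_at gave 3995 in the miR-125a KO pool and 2882 in the WT pool, which was 1.38-fold higher with a ratio of 0.47 (SD 0.19). The 95th percentile of all probe sets in its group of like signal was 0.46. The other Stat5a probe set, 1450259_a_at, designed from the same sequence record, gave 1429 in the miR-125a KO pool and 1487 in the WT pool, with a ratio of -0.06 (SD 0.20). The 2 ratios differed by 0.53, where 1 SD of such a difference was 0.28, so the Stat5a value depends on the probe set read.

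Stat5b was near level. Probe set 1422103_a_at gave 3814 in the miR-125a KO pool and 4288 in the WT pool, a ratio of -0.17 (SD 0.19). Probe set 1422102_a_at gave 285 in the miR-125a KO pool and 290 in the WT pool, a ratio of -0.02 (SD 0.32), whose sign turned under the 3 other scalings, to at most 0.05. Neither ratio exceeded its probe-set SD. Of the 3 neighbouring genes, none had all of its probe sets on the higher side.

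Stat2, Stat4 and Stat6, the factors for interferon and for the Th1 and Th2 cytokines, were slightly higher in the miR-125a KO pool on each of their 5 probe sets. On the whole array, 53.6% of the probe sets past the minimum were lower. These 3 genes are grouped here by function, and a joint shift was not tested. Stat2, the partner of interferon receptor signalling, was at 582 in the miR-125a KO pool and 506 in the WT pool on probe set 1421911_at, a ratio of 0.20 (SD 0.27). Its other probe set, 1450403_at, gave 357 in the miR-125a KO pool and 330 in the WT pool, a ratio of 0.11 (SD 0.28). Both Stat2 ratios were within 1 SD of 0. Stat4, which relays IL-12, had 1 probe set, 1448713_at, with 1723 in the miR-125a KO pool and 1467 in the WT pool and a ratio of 0.23 (SD 0.21). Stat6, which relays IL-4, gave 3420 in the miR-125a KO pool and 3255 in the WT pool on probe set 1426353_at, a ratio of 0.07 (SD 0.19). Its other probe set, 1421708_a_at, gave 902 in the miR-125a KO pool and 835 in the WT pool, a ratio of 0.11 (SD 0.23). Stat4 alone among these 3 genes had a ratio larger than its SD, by a small margin. Across all 6 STAT genes, 7 of 13 probe sets were above 0 and 6 below, with a median of 0.07.

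**Figure D3:**
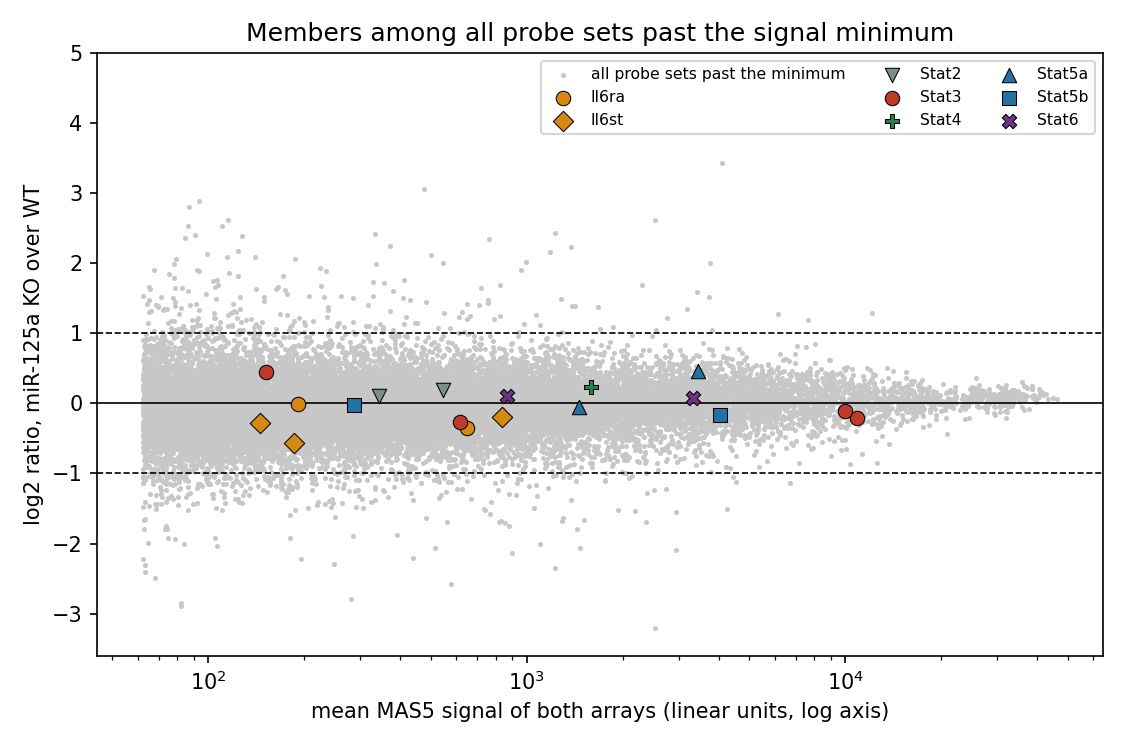
Log2 ratio (vertical axis) against mean signal of both arrays (horizontal log axis) for all 22519 probe sets past the minimum (grey) and the 18 of the STAT and IL-6 receptor genes (coloured symbols), with 2-fold dashed. All 18 lie inside the 2-fold lines, from -0.56 to 0.47, while the spread of the grey points narrows as the signal rises.

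The promoters of these genes, from 250 bases before to 50 after each RefSeq start site, were searched for letters that STAT dimers are known to bind, TTCNNNGAA and, for STAT6, TTCNNNNGAA, and for GAAANNGAAA, the core bound by the interferon complex that contains STAT2. Both strands were read, and there were 11 such windows for the 8 genes. TTCNNNGAA was in 0 of the 11, against 8.30% of 32851 windows of the genome, and TTCNNNNGAA in 1, against 6.95%. GAAANNGAAA was in 2 of the 11, against 3.44%. These 2 are shown, with the match in capitals, as the matches to this core found among the 11 windows. The Stat2 stretch also holds the TTCNNNNGAA match, 2 bases after the capitals and not overlapping them. The stretches are from RefSeq, GRCm38.p6.
Stat2 (chr10:128270251-128270310, + strand): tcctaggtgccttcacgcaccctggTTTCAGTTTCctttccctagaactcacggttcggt
Stat4 (chr1:52008118-52008177, + strand): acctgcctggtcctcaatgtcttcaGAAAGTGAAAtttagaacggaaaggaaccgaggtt
A match describes these letters and does not show that a factor bound there.

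The ligands and partners of the receptor were examined with each gene represented by its probe set of highest mean signal. Among all 10590 genes past the minimum, 2.28% were at least 2-fold apart and the median ratio was 0.01. Of 9 ligands of the IL-6 family, 5 passed the minimum, 0 of them 2-fold apart, with a median ratio of 0.19. Il6 itself was at 351 in the miR-125a KO pool and 223 in the WT pool, a ratio of 0.61 (SD 0.32). Lif, a cytokine that also signals through gp130, was at 8214 in the miR-125a KO and 6335 in the WT pool, a ratio of 0.37 (SD 0.16). Clcf1, another gp130 ligand, had the lowest ratio, -0.46 (SD 0.27), and Ebi3, a subunit of IL-27 and IL-35, had 0.03 (SD 0.24). Of the 4 other measured receptors that use gp130, Il27ra, the receptor chain for IL-27, was the 1 past the minimum, with a ratio of -0.19 (SD 0.23).

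The kinases and inhibitors that act on STAT proteins were likewise less than 2-fold apart. All 4 Janus kinases passed, 0 of them 2-fold apart, from Jak1 at -0.21 and Tyk2 at -0.15 to Jak3 at 0.07 and Jak2 at 0.25. Of 18 suppressors, phosphatases and receptor-shedding proteases, 0 were 2-fold apart and the median was -0.04. Ptpn6, a phosphatase, and Adam10, a sheddase, were lowest at -0.38 and -0.37, and Ptpn1 and Pias2, which restrain STAT signalling, highest at 0.33 each, although the other Pias2 probe sets were lower, at 467 and 121 in the miR-125a KO and 596 and 258 in the WT pool. Socs3, the feedback inhibitor induced by STAT3 that binds gp130, was at 9637 in the miR-125a KO and 10363 in the WT pool, and Cish, the feedback inhibitor induced by STAT5, at 7488 in the miR-125a KO and 7668 in the WT pool. Of 15 other STAT-coupled receptors, 0 were 2-fold apart on the brightest probe set, with a median of -0.20. On these probe sets Ifngr1, part of the receptor for interferon gamma, and Il10rb, a chain of the IL-10 receptor, were lowest at -0.79 and -0.52. Il2ra and Il4ra, the IL-4 receptor chain, were highest at 0.27 and 0.12. Dimmer probe sets past the minimum were beyond 2-fold for Ifngr2 and Il10ra. Ifngr2 was at 104 in the miR-125a KO and 264 in the WT pool, a ratio of -1.22. Il10ra was at 108 in the miR-125a KO and 23.8 in the WT pool, a ratio of 1.63.

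Genes known to be induced through each STAT were set beside the level of that factor. Some stand in more than 1 of these lists and they are reached by other signals too, and the phosphorylation of the STAT proteins was not measured. Of 18 STAT3-induced genes past the minimum, 1 was at least 2-fold higher, against 1.08% of all genes, and 0 lower, with a median of -0.08 and a mean of 0.06, which differ in sign. Batf, an AP-1 family factor, was highest at 1.35 (SD 0.19) and Il17a, the Th17 cytokine, next at 0.96 (SD 0.27). Il21, a cytokine that is also in the STAT4 list, had 0.73 on its brightest probe set and 2.02 on its other one, at 1610 in the miR-125a KO and 384 in the WT pool, which is above Batf. Maf and Bcl6, transcription factors of helper T cells, were lowest at -0.82 (SD 0.19) and -0.78 (SD 0.38). Bcl6 was dim, at 48.9 in the miR-125a KO and 95.9 in the WT pool, with a mean near the minimum. Of 19 STAT5-induced genes, 0 were at least 2-fold higher and 2 lower, against 1.2% of all genes lower, with a median of -0.08. The 2 were Prf1, which encodes perforin, at -1.88 (SD 0.28) and Foxp3 at -1.21 (SD 0.20), while Il2ra and Osm, a gp130 ligand, were highest at 0.27 and 0.19.

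Of 16 STAT6-induced genes, 8 were at least 2-fold higher in the miR-125a KO pool, against 1.08% of all genes. Of these 16, 0 were 2-fold lower, and the median was 0.89. The 8 were the Th2-type cytokines Il9, Il5, Il13, Il4 and Il24, the Th2 factor Gata3, Batf and Cd83, an activation marker. Their ratios ran from 1.29 for Il24 to 3.44 for Il9. In the same RNA the Stat6 probe sets had ratios of 0.07 and 0.11. The list was chosen with earlier results of these data known, the values of these cytokines among them, so its count and median are a description. Nfil3, a transcription factor, and Maf were the lowest of the list at -0.24 and -0.82. Of 11 STAT2-induced genes, 2 were at least 2-fold higher, against 1.08% of all genes, and 0 lower, with a median of 0.37. Usp18, a brake on interferon signalling, was at 1521 in the miR-125a KO and 396 in the WT pool, a ratio of 1.90 (SD 0.23). Oas1a, an antiviral enzyme, was at 153 in the miR-125a KO and 64.2 in the WT pool, a ratio of 1.07 (SD 0.38). Its WT signal was close to the minimum of 62.3. Irf9, which joins STAT2 in the interferon complex, was lowest at -0.30 (SD 0.20) and Ifit3, an interferon-induced protein, next at -0.07 (SD 0.38). Of 9 STAT4-induced genes, 0 were 2-fold apart, with a median of 0.06. Il21 and Ifng, the main Th1 cytokine, were highest at 0.73 and 0.33. Il12rb2, an IL-12 receptor chain, and Runx3, a transcription factor, were lowest at -0.20 and -0.18.

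**Figure D4:**
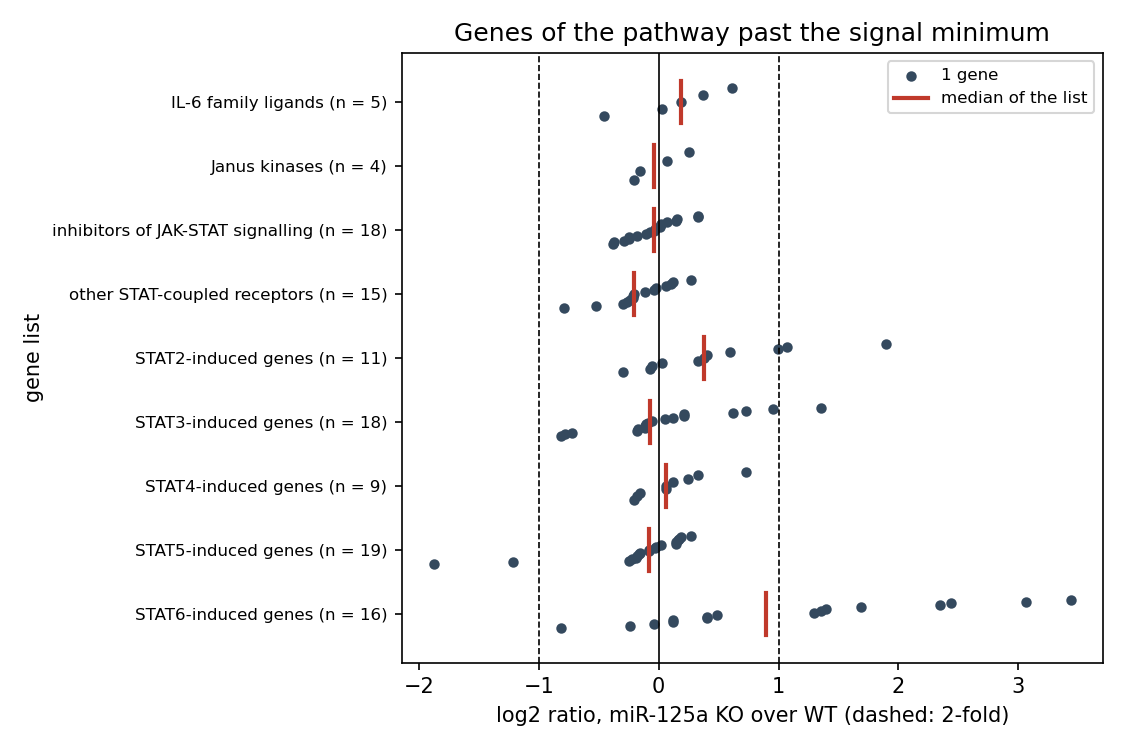
Log2 ratio of the miR-125a KO over the WT pool (horizontal axis) for each gene past the minimum in 9 gene lists of the pathway, with the list median in red and 2-fold dashed. Medians lie between -0.20 and 0.37 except that of the STAT6-induced genes at 0.89. The lists were chosen with earlier results of these data known. The STAT6-induced median was 0.49 with no minimum and 1.32 with the minimum at the 75th percentile. Several genes stand in more than 1 list.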

How the data were processed

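RNA of 2 pools was read on 1 array each. The authors deposited log2 values made with MAS5, per the submitters' processing notes, with no version given. MAS5 subtracts mismatch signal, which makes low values variable. A value of 0, the lowest, was held by 473 probe sets of the miR-125a KO and 552 of the WT array. Median signals were 62.4 on the miR-125a KO and 64.1 on the WT array. Detection calls were not used here, and the number of arrays limits precision. Probe sets were named by the platform annotation. The identifiers of all 8 genes matched the RefSeq table (GRCm38.p6). Without a genome build in the array values, coordinates are given only for printed sequences. The 64 control probe sets were left out. The pseudocount is the 25th percentile of all signals and the minimum the median of mean signals. Probe-set SDs came from the 2 brightest probe sets of each gene, in 10 signal groups. The members and gene lists were chosen with earlier results of these data known. Named genes were all members, the 2 highest and 2 lowest of each pathway list, those at least 2-fold apart, and Foxp3, Il2ra, Cd4, Cd3e and Ctla4. Socs3, Cish and the cell type markers other than those 5 were named outside that rule, after values were seen. Python 3.11.15, pandas 2.3.3 and statsmodels 0.14.6 were used, and the calculation was tested on simulated data.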

Additional observations from a re-analysis of the deposited data

How the results depend on the processing

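The 3 scalings, 2 pseudocounts, 2 minimums and the omission of probe sets ending in _s_at or _x_at were applied to members and lists, and the mean over probe sets to the lists alone. The count of members at least 2-fold apart was 0 in each of the settings applied to members, and at 3-fold it was also 0. At 1.5-fold it was 1 with a pseudocount of 1 and 1 with no minimum, both of Il6st. Of 137 recomputed member ratios, 6 changed sign, those of the dimmer Il6ra and Stat5b probe sets under the 3 other scalings. The STAT3-induced count at 2-fold was 2 with quantile, loess and the mean over probe sets, and the STAT4-induced count was 1 with that mean. The STAT2-induced count was 1 with a pseudocount at the median signal and with the minimum at the 75th percentile, where the STAT5-induced count was 1. The STAT2-induced count was 3 under the 3 scalings, a pseudocount of 1 and no minimum. The STAT6-induced median was 0.49 with no minimum and 1.32 at the 75th percentile. With no minimum, medians were 0.37 for IL-6 family ligands, -0.39 for other gp130 receptors and -0.12 for myeloid markers, and 2 gp130 receptors and 2 B cell markers were 2-fold apart. The myeloid count was 0 under the 3 scalings, the higher pseudocount, where the median was -0.37, and the higher minimum. Over all probe sets, 234 were at least 2-fold higher and 346 lower, against 287 and 265 after loess and 283 and 267 after quantile scaling. With no minimum they were 2038 and 1645. The cause of these shifts was not tested. No paired analysis was possible because each genotype had 1 array. Low signal limits ratios of dim probe sets.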
